A study of Mus musculus with 12 samples.

Results

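The extracellular and membrane part of the Wnt pathway was followed during depletion of Esrrb in mouse embryonic stem cells (mESCs). Members were chosen by gene symbol: the Wnt ligands, the Frizzled (Fzd) receptors, the Sfrp, Dkk, Kremen, Rspo and Lgr4 to Lgr6 genes, and Lrp5, Lrp6, Ror1, Ror2, Ryk, Porcn, Wls, Notum, Znrf3 and Wif1. The array measured 56 of these genes with 57 probe sets that name 1 gene each, out of 19938 genes in all. There were 19 ligands, 2 genes of ligand maturation, 10 Frizzled receptors, 5 co-receptors and other receptors, 8 genes of the R-spondin axis and 12 antagonists.

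Transcript levels of Esrrb_R cells came from 12 arrays of the Affymetrix Mouse Gene 1.0 ST type, 3 biological replicates at each of 4 days. Esrrb_R is 1 rescue clone of the AINV15 line, which expresses the Dox-responsive activator rtTA. In all groups an shRNA silences endogenous Esrrb, and a copy that escapes the shRNA is expressed only with doxycycline (Dox). Day 0 cells grew with 1 µg/ml Dox, and cells of days 1, 3 and 5 had been without Dox for that number of days, in medium with serum and Lif. The line was kept on mouse embryonic fibroblasts and was moved to gelatin without feeders for the experiment. Arrays of cells without the construct over the same days were not analysed here, so loss of Esrrb, removal of Dox and time cannot be told apart.

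Wnt ligands are secreted, lipid-modified proteins. They bind a Frizzled receptor, and together with Lrp5 or Lrp6 this protects β-catenin, which then acts with Tcf and Lef factors on target genes. Other ligand and receptor pairs, among them Wnt5a with Ror1 or Ror2, act without β-catenin on cell shape and movement. In mESCs Wnt signaling relieves repression by Tcf7l1 and helps to sustain self-renewal, and in the embryo it is needed to form the primitive streak, from which mesoderm and endoderm arise.

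Array quality was similar across days: the lowest correlation of any array with another of its day was 0.9916. The Esrrb signal (log2, 1 value per array after RMA normalization) had a mean ± SD over 3 arrays of 11.59 ± 0.05 at day 0, 9.13 ± 0.04 on day 1, 8.20 ± 0.14 on day 3 and 8.19 ± 0.08 on day 5. Of 10 pluripotent stem cell markers, all were above the level of silent olfactory receptor genes, and 8 fell and 1 rose at day 5 against day 0. Among all genes at day 5, 17.4% were higher and 17.6% lower. Of 8 trophectoderm markers 4 rose and none fell at day 5, and their summed linear signal was 14688 to 16582 at day 5, against 4356 to 5229 at day 0. The 4 were Gata3 and the simple epithelial keratins Krt7, Krt8 and Krt18, while Cdx2, Elf5, Hand1 and Tfap2c did not pass. Primitive and visceral endoderm markers summed to 19976 to 24333 at day 5, against 17230 to 18454 at day 0, with 8 of 12 higher and 3 lower. In bulk samples fewer cells of a type and less RNA per cell cannot be told apart, and how far these cell types enter the Wnt gene values was not tested.

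More Wnt genes were called as days without Dox went by, and at day 5 most of the called members were higher. At day 1, 6 members rose and 4 fell against day 0 (17.9% called), with 10.9% of all genes called, 6.45% higher and 4.48% lower. Without day 1 replicate 1 the members higher at day 1 numbered 3. At day 3, 12 rose and 7 fell (33.9%), with 26.6% of all genes called, 13.5% higher and 13.1% lower. At day 5, 21 rose and 7 fell (50.0%), with 35.0% of all genes called. The share that rose at day 5 was 37.5% of members, with 17.4% of all genes called higher, and the share that fell was 12.5%, with 17.6% of all genes called lower. A call is an adjusted p under 0.05 in limma, with Benjamini-Hochberg adjustment over all 19938 genes, and all log2 changes below come from this fit. The members' median log2 change on day 1 was 0.03 (0.01 for all genes), on day 3 it was 0.11 (0.00 for all genes), and on day 5 it was 0.09 (-0.02 for all genes).

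Between days without Dox, 8 members were higher and 5 lower on day 3 than on day 1, with 20.8% of all genes called (9.20% higher, 11.6% lower). With each array centred on its median this contrast gave 5 members higher and 6 lower. On day 5, 13 were higher and 6 lower than on day 3, with 25.3% of all genes called (13.0% higher, 12.2% lower). The arrays did not overlap for 24 members between days 3 and 1 and 28 between days 5 and 3, as for 40.4% and 38.9% of all genes. The 3 arrays of a day lay wholly apart from those of day 0 for 18 members at day 1, 27 at day 3 and 31 at day 5, where 30.3%, 39.3% and 42.8% of all genes did. Over the whole time course the moderated F test called 29 of 56 members (51.8%), with 45.6% of all genes called. The 26 members that passed at no day against day 0 included 13 ligands and 7 of the 8 R-spondin axis genes. Lgr5, Rspo2, Sfrp5, Wif1, Wnt1, Wnt2 and Wnt8b were at or below the level that 95% of olfactory receptor genes stayed under, and 0 of these 7 were called at days 1, 3 or 5.

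**Figure D1:**
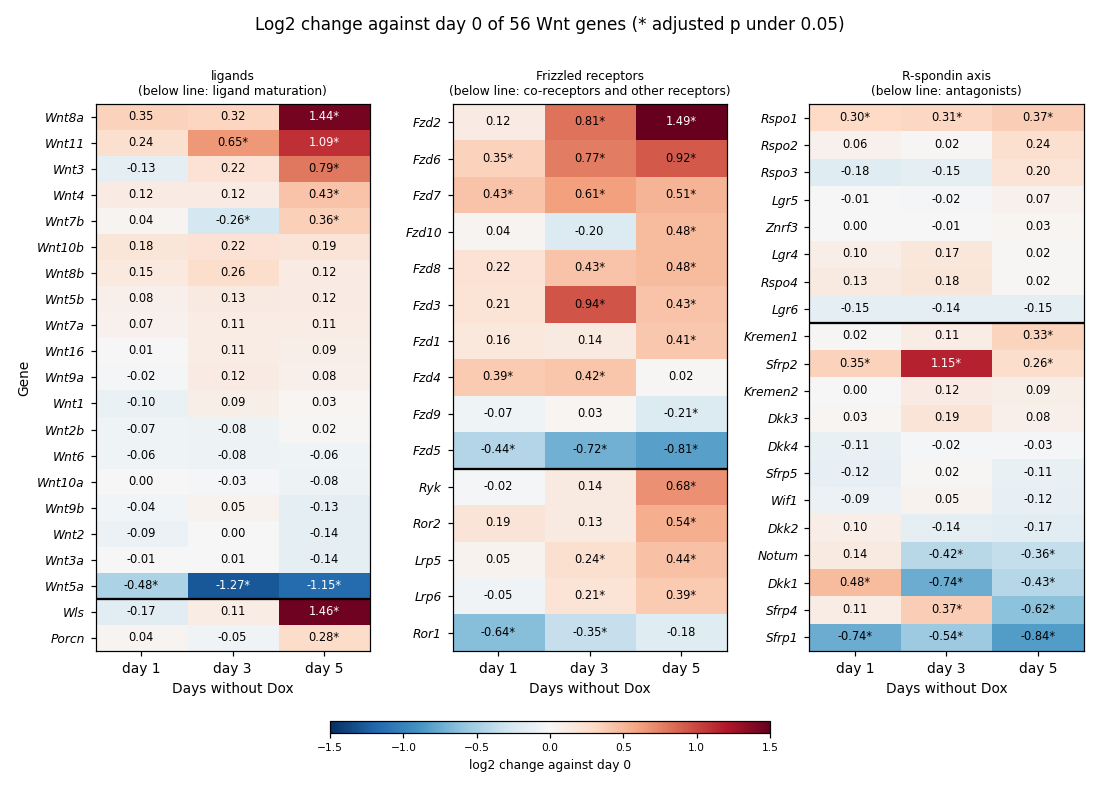
Log2 change against day 0 of the 56 Wnt genes at days 1, 3 and 5 (columns), with genes in rows by role and a star where the adjusted p was under 0.05. Red is higher and blue lower than day 0. Fzd2, Wls and Wnt8a rose most at day 5 (1.49, 1.46 and 1.44), Wnt5a fell most (-1.15), and most ligands stayed near 0.

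Promoter sequence was given for 35 of the 56 members, as 38 windows from 250 bases before to 50 after a RefSeq start, with 2 windows for Wnt11 and 3 for Wnt5b. Among the members without a window, and so not searched, were Wnt5a, Wnt8a, Fzd2, Fzd3, Fzd6, Sfrp1 and Sfrp4. The motif TNAAGGTCA, the extended nuclear receptor site that Esrrb binds, was searched on both strands and was in 0 of the 38 windows, and 1.43% of 27025 genes with a window hold it. The Tcf and Lef motif ATCAAAG, searched likewise, was in 2 of the 38 windows, 1 of Wnt11 and 1 of Wnt5b, whose other windows do not hold it. This made 5.71% of the 35 members. Of the 27025 RefSeq genes with a window, which are not limited to protein-coding genes, 4.29% hold it in any window. The median GC was 67.7% in the members, 57.3% in 17492 protein-coding promoters and 53.3% in the 27025. A match is no evidence of binding, and no match says only that these letters are not in this window. Taking the window with the most CpG for each gene, the members had a median of 27 CpG, from 6 in Wnt8b to 58 in Wnt9a, against 15 in 17492 protein-coding promoters. The median was 30.5 CpG in the 16 members called at any day and 26 in the 19 called at no day. Below are 1 window each of Wnt11, the called ligand with the motif, and of Wls and Fzd5, a gene that rose late and a gene that was lower at every day without Dox, 5′ to 3′ on the gene's strand, from RefSeq GRCm38.p6. Capitals mark ATCAAAG in Wnt11 and each CpG in Wls and Fzd5.
Wnt11, chr7:98834862-98835161, plus strand: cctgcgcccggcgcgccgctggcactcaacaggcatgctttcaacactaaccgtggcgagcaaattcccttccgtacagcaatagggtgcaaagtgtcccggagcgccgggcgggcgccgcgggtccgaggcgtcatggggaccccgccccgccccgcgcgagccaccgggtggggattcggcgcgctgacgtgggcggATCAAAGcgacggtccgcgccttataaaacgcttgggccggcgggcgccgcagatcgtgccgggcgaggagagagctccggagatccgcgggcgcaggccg
Wls, chr3:159839400-159839699, plus strand: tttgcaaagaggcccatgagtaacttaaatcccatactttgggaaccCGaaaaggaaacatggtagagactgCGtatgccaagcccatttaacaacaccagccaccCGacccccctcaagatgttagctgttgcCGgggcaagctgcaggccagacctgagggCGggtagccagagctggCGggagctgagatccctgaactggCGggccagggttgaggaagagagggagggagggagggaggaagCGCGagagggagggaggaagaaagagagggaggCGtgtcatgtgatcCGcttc
Fzd5, chr1:64737701-64738000, minus strand: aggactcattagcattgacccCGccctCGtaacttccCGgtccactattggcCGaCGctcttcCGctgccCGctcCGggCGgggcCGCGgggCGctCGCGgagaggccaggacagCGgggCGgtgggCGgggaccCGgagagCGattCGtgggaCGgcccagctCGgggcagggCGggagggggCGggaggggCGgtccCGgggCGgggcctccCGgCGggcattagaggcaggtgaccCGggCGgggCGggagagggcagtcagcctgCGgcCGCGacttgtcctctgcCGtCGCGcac
The ATCAAAG of Wnt11 begins 51 bases before the start of this window's transcript. Of the 3 windows, that of Wnt11 holds 45 CpG, that of Fzd5 38 and that of Wls 11.

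Among the 19 ligands, Wnt5a was lower than on day 0 at every later day, Wnt11 rose at days 3 and 5, and Wnt8a and Wnt3 rose at day 5. Wnt5a, a ligand that acts mainly without β-catenin, gave 7.76, 7.72 and 7.71 at day 0, 7.17, 7.28 and 7.29 at day 1, 6.35, 6.38 and 6.64 at day 3, and 6.62, 6.43 and 6.69 at day 5. Every array without Dox was below every array with Dox, and days 3 and 5 overlapped. The log2 change was -0.48 at day 1 (adjusted p = 0.0026), -1.27 at day 3 (0.414-fold, SE 0.08, adjusted p = 2.3e-07) and -1.15 at day 5 (0.451-fold, SE 0.08, adjusted p = 2.6e-07). The difference between day 5 and day 3 was 0.13 (adjusted p = 0.32). Fibroblasts also express Wnt5a. Of 14 fibroblast markers, 8 fell and 1 rose at day 3 against day 0, where 13.1% of all genes fell and 13.5% rose. Their summed linear signal was 1981 to 2070 at day 3, against 3208 to 3557 at day 0. At day 5, 3 fell and 1 rose (median of the 14 -0.01), with 17.6% and 17.4% of all genes, and the sum was 2562 to 3000. The markers that stayed lower at day 5 were Lox (-2.43 at day 3 and -2.50 at day 5), Prrx1 (-1.29 and -1.27) and Snai2 (-0.98 and -0.76). The collagen genes Col1a1 and Col1a2 differed from day 0 by -0.98 and -1.44 at day 3 and by -0.02 and -0.21 at day 5. Postn, Lum and Fap were at or below the olfactory level, and the part of such cells in Wnt5a was not tested.

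Wnt11, which guides cell movement in the gastrulating embryo, gave 7.19, 6.94 and 7.15 at day 0, 7.26, 7.38 and 7.36 at day 1, 7.76, 7.74 and 7.72 at day 3, and 8.07, 8.29 and 8.18 at day 5. No 2 days overlapped. The change was 0.24 at day 1 (adjusted p = 0.06), 0.65 at day 3 (1.57-fold, SE 0.08, adjusted p = 3.1e-05) and 1.09 at day 5 (2.12-fold, SE 0.08, adjusted p = 1.7e-07). Each later step passed as well, with 0.41 for day 3 against day 1 (adjusted p = 0.0019) and 0.44 for day 5 against day 3 (adjusted p = 8.4e-04).

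Wnt8a, a β-catenin-dependent ligand of the early embryo, gave 6.71, 6.44 and 6.79 at day 0, 7.01, 6.94 and 7.04 at day 1, 6.90, 7.03 and 6.98 at day 3, and 8.45, 7.61 and 8.20 at day 5. The day 5 arrays were above all others and spread most, with replicate 2 the lowest. Wnt8a rose by 1.44 at day 5 against day 0 (2.71-fold, SE 0.16, adjusted p = 1.2e-05) and by 1.12 against day 3 (adjusted p = 2.3e-04). The differences of 0.35 at day 1 and 0.32 at day 3 did not pass (adjusted p = 0.21 and 0.18). Even so, every array of days 1 and 3 was above every array of day 0. The day 3 difference passed when only the 2 days compared were in the fit.

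Wnt3, the ligand required for the primitive streak in the mouse, gave 6.63, 6.47 and 6.72 at day 0, 6.40, 6.46 and 6.58 at day 1, 6.76, 6.97 and 6.75 at day 3, and 7.71, 7.08 and 7.41 at day 5. Again all day 5 arrays were above all others, and replicate 2 was the lowest of them. Wnt3 rose by 0.79 at day 5 against day 0 (1.73-fold, SE 0.13, adjusted p = 3.1e-04) and by 0.57 against day 3 (adjusted p = 0.0054). Of the primitive streak markers listed, T (Tbxt) had no value. The 5 measured summed to 903 in replicate 1, 561 in replicate 2 and 773 in replicate 3 at day 5, against 567 to 580 at day 0. Of these markers Mixl1 and Gsc rose at day 5 (0.60 and 0.24, adjusted p = 0.0072 and 0.044), Eomes differed by 0.39 (adjusted p = 0.15), and Mesp1 and Evx1 were at or below the olfactory level. Their part in the ligand values was not tested.

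Wnt7b and Wnt4 made up the other ligands called at day 5. Wnt7b, a ligand of epithelia, had a mean ± SD over 3 arrays of 7.55 ± 0.10 at day 0, 7.58 ± 0.05 on day 1, 7.29 ± 0.06 on day 3 and 7.91 ± 0.12 on day 5, and is plotted by array because its day 3 and day 5 changes were seen to run in opposite directions. It rose by 0.36 at day 5 against day 0 (adjusted p = 0.0015) and by 0.62 against day 3 (adjusted p = 4.3e-05). Its fall of 0.26 at day 3 against day 0 (adjusted p = 0.019) was lost without day 0 replicate 1 or 3 or day 3 replicate 1 or 2 (adjusted p up to 0.069). Wnt4, needed to form kidney tubules and measured by 2 probe sets, rose by 0.43 at day 5 (adjusted p = 0.017). Wnt4 at day 5 against day 0 gave 0.23 without day 0 replicate 2, the lowest of its arrays, and 0.33 with the brighter probe set alone (adjusted p = 0.075). The 13 other ligands, among them Wnt3a and Wnt5b, did not pass, and their day 5 differences lay between -0.14 and 0.19. The called share of the 19 ligands by day 5 was thus 31.6%, with 35.0% of all genes called. By direction, 26.3% of the ligands were higher and 5.26% lower, with 17.4% and 17.6% of all genes. Whether counts this small differ from the shares of all genes was not tested. The ligand share was 15.8% beside 26.6% by day 3, and 5.26% beside 10.9% by day 1.

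Both genes of ligand maturation rose at day 5 and at no earlier day. Wls, the membrane protein that carries lipid-modified Wnts to the cell surface, gave 8.37, 8.29 and 8.17 at day 0, 8.12, 8.21 and 8.0 at day 1, 8.37, 8.34 and 8.46 at day 3, and 10.11, 9.28 and 9.81 at day 5. The day 5 arrays stood far above the rest, again with replicate 2 the lowest. Wls rose by 1.46 against day 0 (2.74-fold, SE 0.15, adjusted p = 6.5e-06) and by 1.35 against day 3 (2.54-fold, adjusted p = 3.2e-05). Porcn, the enzyme that attaches the lipid, rose by 0.28 at day 5 (adjusted p = 0.033), a call lost without day 0 replicate 1 or 3 or day 5 replicate 2 or 3 (adjusted p up to 0.14).

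**Figure D2:**
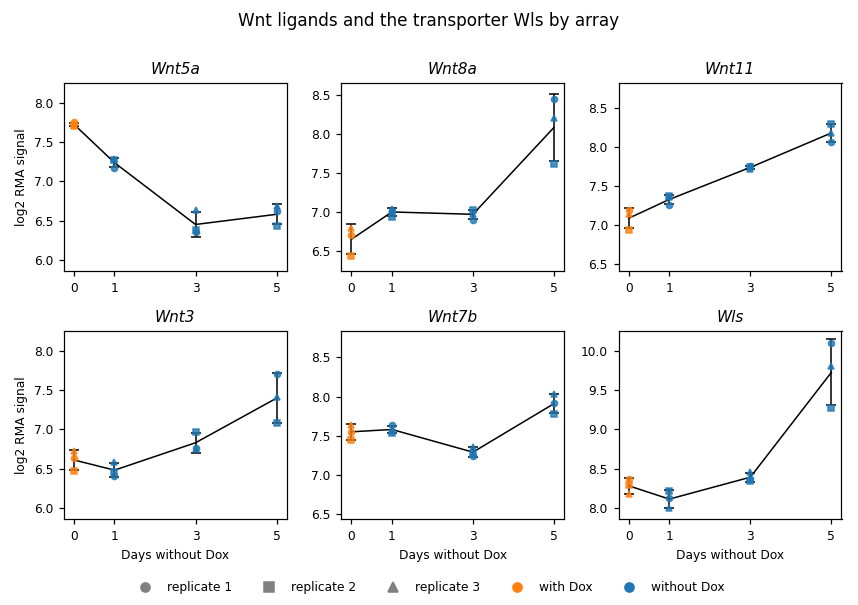
Log2 RMA signal of 5 Wnt ligands and Wls against days without Dox, with 1 point per array, replicates by shape, cells with Dox in orange and without in blue, and lines and bars for the mean ± SD of 3 arrays. All panels span the same log2 range. Wnt5a fell to 6.45 by day 3, Wnt11 climbed to 8.18, and Wnt8a, Wnt3 and Wls rose at day 5 with replicate 2 the lowest.

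Most Frizzled receptors rose, and Fzd5 was lower than on day 0 at every later day. On day 1, 3 of the 10 were higher and 1 lower than on day 0 (median change 0.18), with 6.45% of all genes higher and 4.48% lower. Day 3 had 6 higher and 1 lower (median 0.43), with 13.5% and 13.1% of all genes, and day 5 had 7 higher and 2 lower (median 0.46), with 17.4% and 17.6% of all genes. Only Fzd4 was not called at day 5. Fzd2, a receptor that can bind Wnt5a, gave 7.81, 7.82 and 7.86 at day 0, 7.95, 7.85 and 8.04 at day 1, 8.61, 8.70 and 8.63 at day 3, and 9.58, 8.90 and 9.49 at day 5. Days 0 and 1 overlapped, and days 3 and 5 each stood above all earlier arrays. It rose by 0.81 at day 3 (1.76-fold, SE 0.13, adjusted p = 4.8e-04) and by 1.49 at day 5 (2.82-fold, SE 0.13, adjusted p = 1.5e-06). The step from day 3 to day 5 was 0.68 (adjusted p = 0.0020).

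Fzd6, a receptor of tissue polarity, gave 7.56, 7.71 and 7.60 at day 0, 7.93, 7.99 and 8.0 at day 1, 8.33, 8.53 and 8.31 at day 3, and 8.57, 8.36 and 8.69 at day 5. Every array without Dox was above those with Dox, and days 3 and 5 overlapped. It rose by 0.77 at day 3 (adjusted p = 2.1e-05) and 0.92 at day 5 (1.89-fold, SE 0.09, adjusted p = 2.3e-06), while the rise of 0.35 at day 1 (adjusted p = 0.019) was lost without day 0 replicate 1 or day 1 replicate 2 or 3 (adjusted p up to 0.073).

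Fzd7, a main Frizzled receptor of pluripotent cells, gave 9.70, 9.75 and 9.66 at day 0, 10.12, 10.17 and 10.11 at day 1, 10.32, 10.35 and 10.27 at day 3, and 10.12, 10.18 and 10.35 at day 5. It was thus above day 0 in every later array and had reached most of its rise by day 1. The changes were 0.43 at day 1 (adjusted p = 9.1e-04), 0.61 at day 3 (1.52-fold, SE 0.06, adjusted p = 1.3e-05) and 0.51 at day 5 (adjusted p = 3.0e-05).

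Fzd3, which works in axon guidance and tissue polarity, gave 7.52, 7.27 and 7.40 at day 0, 7.61, 7.70 and 7.52 at day 1, 8.27, 8.35 and 8.39 at day 3, and 7.98, 7.65 and 7.87 at day 5. Day 3 was above all other days, and day 5 lay between day 3 and day 0 without touching either. It rose by 0.94 at day 3 (1.92-fold, SE 0.09, adjusted p = 5.3e-06) and was 0.43 above day 0 at day 5 (adjusted p = 0.0018), with a fall of 0.51 at day 5 against day 3 (adjusted p = 0.0010).

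Fzd5 ran the other way, with 8.57, 8.68 and 8.72 at day 0, 8.23, 8.28 and 8.17 at day 1, 7.95, 7.96 and 7.91 at day 3, and 7.79, 7.86 and 7.91 at day 5. The 9 arrays without Dox were all below the 3 with Dox, and days 5 and 3 differed by -0.09 (adjusted p = 0.32). Its change was -0.44 at day 1 (adjusted p = 4.1e-04), -0.72 at day 3 (adjusted p = 1.4e-06) and -0.81 at day 5 (0.572-fold, SE 0.06, adjusted p = 2.4e-07).

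The remaining Frizzled genes changed by less than 0.5 against day 0. Fzd8 rose by 0.43 at day 3 and 0.48 at day 5 (adjusted p = 0.0036 and 0.0011), and Fzd10 and Fzd1 rose at day 5 only (0.48 and 0.41, adjusted p = 0.0044 and 0.0020). Fzd10 was also higher by 0.68 at day 5 than at day 3 (adjusted p = 5.9e-04). Fzd4 rose by 0.42 at day 3 (adjusted p = 0.0063), fell by 0.40 at day 5 against day 3 (adjusted p = 0.0094) and at day 5 was 0.02 from day 0 (SE 0.10, adjusted p = 0.89). Its rise of 0.39 at day 1 was lost without day 0 replicate 2 or 3 or day 1 replicate 1 or 2 (adjusted p up to 0.10). The fall of Fzd9 at day 5 was 0.21 (adjusted p = 0.034) and was lost without any one of 5 arrays, day 0 replicates 2 and 3 and the 3 arrays of day 5 (adjusted p up to 0.11).

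Co-receptors and other receptors rose late, apart from Ror1. Ryk, a Wnt receptor with an inactive kinase domain, gave 10.49, 10.53 and 10.42 at day 0, 10.50, 10.45 and 10.44 at day 1, 10.66, 10.60 and 10.61 at day 3, and 11.22, 11.07 and 11.20 at day 5. Day 5 stood above all other arrays. It rose by 0.68 at day 5 against day 0 (1.6-fold, SE 0.06, adjusted p = 9.6e-07) and by 0.54 against day 3 (adjusted p = 2.0e-05).

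Ror1 and Ror2, receptor kinases that bind Wnt5a, differed in time course. Ror1 gave 8.68, 8.46 and 8.40 at day 0, 7.82, 7.91 and 7.90 at day 1, 8.21, 8.17 and 8.11 at day 3, and 8.30, 8.29 and 8.41 at day 5. It was lowest at day 1, and its day 5 arrays overlapped those of day 0. Ror1 fell by 0.64 at day 1 (0.644-fold, SE 0.07, adjusted p = 1.0e-04) and by 0.35 at day 3 (adjusted p = 0.0027), and at day 5 differed by -0.18 (adjusted p = 0.073). The rise of 0.29 at day 3 against day 1 (adjusted p = 0.013) was lost without day 1 replicate 1 (adjusted p = 0.057).

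Ror2 gave 8.17, 8.02 and 8.23 at day 0, 8.36, 8.31 and 8.32 at day 1, 8.21, 8.33 and 8.26 at day 3, and 8.72, 8.49 and 8.81 at day 5. All 3 day 5 arrays were above the rest, and it rose by 0.54 against day 0 (1.45-fold, SE 0.08, adjusted p = 1.6e-04). Lrp5 and Lrp6, the co-receptors of β-catenin signaling, rose by 0.44 and 0.39 at day 5 (adjusted p = 9.3e-04 and 7.4e-04). Their day 3 rises of 0.24 and 0.21 (adjusted p = 0.046 and 0.040) were lost on leaving out single arrays. For Lrp5 this held for 9 of the 12 arrays, all but day 0 replicate 2 and day 5 replicates 2 and 3 (adjusted p up to 0.14). For Lrp6 it held for 6, day 0 replicates 2 and 3, day 1 replicate 1 and the 3 arrays of day 3 (adjusted p up to 0.12).

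**Figure D3:**
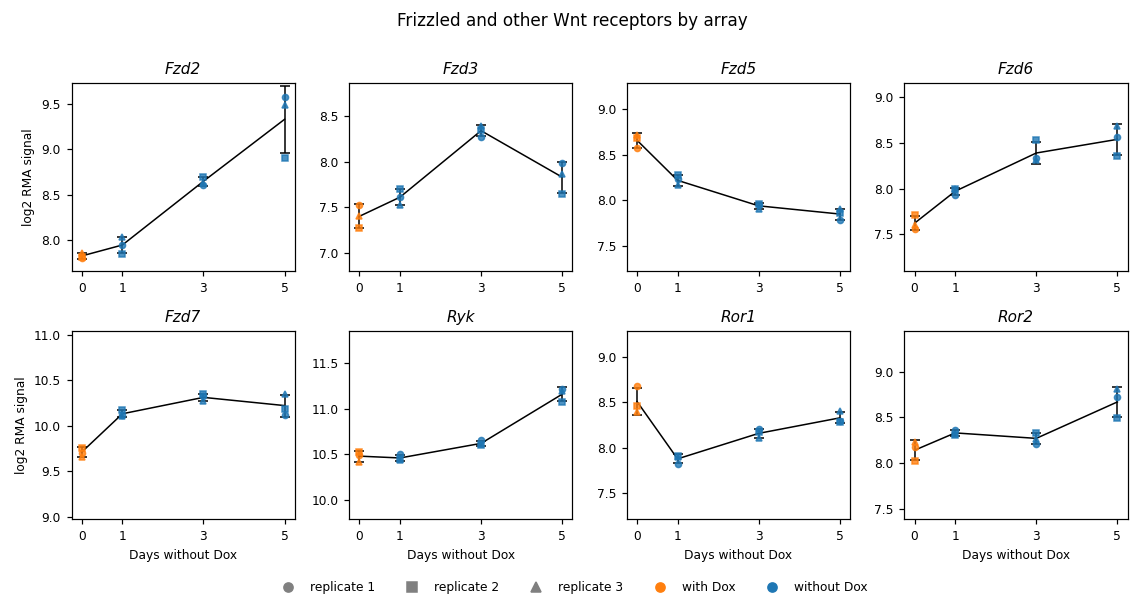
Log2 RMA signal of 5 Frizzled receptors, Ryk, Ror1 and Ror2 against days without Dox, with 1 point per array, replicates by shape, cells with Dox in orange and without in blue, and lines and bars for the mean ± SD of 3 arrays. Fzd2 and Ryk were highest at day 5, Fzd3 peaked at day 3 (8.34), Ror1 was lowest at day 1 (7.88), and Fzd5 was below day 0 at every later day, with days 3 and 5 close together.

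The R-spondin axis changed little. R-spondins bind Lgr4 to Lgr6 and remove Znrf3, a ubiquitin ligase that clears Frizzled from the membrane. Of its 8 genes only Rspo1 was called against day 0, higher by 0.30 at day 1, 0.31 at day 3 and 0.37 at day 5 (SE 0.07, adjusted p = 0.015, 0.0046 and 8.1e-04). The day 1 call was lost without day 0 replicate 2 or day 1 replicate 1 (adjusted p up to 0.066). Rspo1 alone makes up 12.5% of the axis. Among all genes 10.9% passed by day 1, so the axis was not below them then. By day 3 the share of all genes was 26.6%, and by day 5 it had reached 35.0%. Rspo3 averaged 6.66 ± 0.21 at day 5, against 6.31 ± 0.06 at day 3 (SD, n = 3), a rise of 0.35 (adjusted p = 0.0094), and at day 5 was 0.20 above day 0 (adjusted p = 0.089). Lgr4 averaged 10.94 ± 0.09 at day 5, against 10.92 ± 0.11 at day 0, and Znrf3 differed by 0.03 at day 5 (SE 0.11, adjusted p = 0.87).

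Among the antagonists, Sfrp1, Dkk1, Sfrp4 and Notum were lower at day 5, and Dkk1, Sfrp2 and Sfrp4 turned within the time course. Of 12, 2 were higher and 1 lower than on day 0 by day 1, 2 higher and 3 lower by day 3, and 2 higher and 4 lower by day 5. At day 5 this was 16.7% higher and 33.3% lower, with 17.4% and 17.6% of all genes. At day 3 it was 16.7% and 25.0%, with 13.5% and 13.1% of all genes, and at day 1 16.7% and 8.33%, with 6.45% and 4.48%. Dkk1, which blocks Lrp5 and Lrp6 and is itself a Wnt target, gave 9.24, 9.22 and 9.25 at day 0, 9.61, 9.82 and 9.71 at day 1, 8.53, 8.54 and 8.42 at day 3, and 8.92, 8.78 and 8.72 at day 5. No 2 days overlapped, with day 1 the highest and day 3 the lowest. It rose by 0.48 at day 1 (1.39-fold, SE 0.07, adjusted p = 8.5e-04), then fell by 1.22 at day 3 against day 1 (adjusted p = 4.5e-07), and was 0.599-fold of day 0 at day 3 (log2 change -0.74, adjusted p = 5.3e-06). At day 5 its change against day 0 was -0.43 (adjusted p = 3.3e-04), and against day 3 it rose by 0.31 (adjusted p = 0.0051).

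The Sfrp genes encode secreted proteins with a Frizzled-like domain that binds Wnts. Sfrp2 gave 9.04, 9.22 and 8.92 at day 0, 9.46, 9.43 and 9.33 at day 1, 10.21, 10.17 and 10.25 at day 3, and 9.23, 9.32 and 9.41 at day 5. Day 3 stood clear of every other day. Sfrp2 rose by 1.15 at day 3 (2.22-fold, SE 0.08, adjusted p = 2.4e-07) and fell by 0.89 at day 5 against day 3 (adjusted p = 4.0e-06). Its rises of 0.35 at day 1 and 0.26 at day 5 against day 0 (adjusted p = 0.011 and 0.017) rested on single arrays. The first was lost without day 1 replicate 1 (adjusted p = 0.051) and the second without day 0 replicate 1 or 3 or day 5 replicate 3 (adjusted p up to 0.075).

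Sfrp4 gave 7.82, 7.96 and 7.82 at day 0, 8.02, 7.99 and 7.92 at day 1, 8.29, 8.19 and 8.24 at day 3, and 7.40, 7.08 and 7.26 at day 5. Like Sfrp2 it was highest at day 3, but its day 5 arrays were below those of day 0. It rose by 0.37 at day 3 (adjusted p = 0.0027), and at day 5 fell by 0.62 against day 0 (0.650-fold, SE 0.08, adjusted p = 2.7e-05) and by 0.99 against day 3 (adjusted p = 1.6e-06).

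Sfrp1 gave 8.10, 8.35 and 8.27 at day 0, 7.52, 7.52 and 7.46 at day 1, 7.83, 7.56 and 7.70 at day 3, and 7.32, 7.44 and 7.44 at day 5. All 9 arrays without Dox were below the 3 with Dox. Its change was -0.74 at day 1 (0.600-fold, SE 0.08, adjusted p = 6.4e-05), -0.54 at day 3 (adjusted p = 2.0e-04) and -0.84 at day 5 (0.559-fold, adjusted p = 2.5e-06). Notum, the enzyme that removes the Wnt lipid, fell by 0.42 at day 3 and 0.36 at day 5 (adjusted p = 1.0e-04 and 2.0e-04). Kremen1, a partner of Dkk proteins, rose by 0.33 at day 5 (adjusted p = 0.0066), and the other 6 antagonists lay between -0.17 and 0.09 at day 5.

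**Figure D4:**
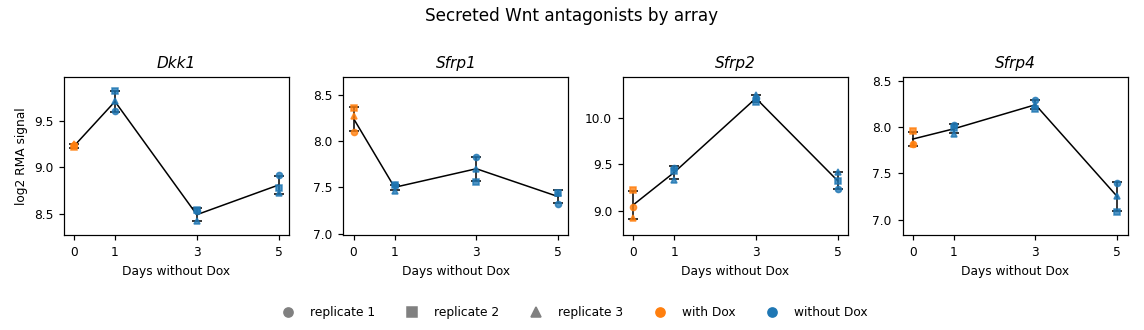
Log2 RMA signal of Dkk1, Sfrp1, Sfrp2 and Sfrp4 against days without Dox, with 1 point per array, replicates by shape, cells with Dox in orange and without in blue, and lines and bars for the mean ± SD of 3 arrays. Dkk1 was highest at day 1 (9.71) and lowest at day 3 (8.49), Sfrp2 and Sfrp4 were highest at day 3 (10.21 and 8.24), and Sfrp1 was below day 0 at every later day.

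Of the 56 members, 7 (12.5%) were called at days 1, 3 and 5 in 1 direction, as were 5.34% of all genes: Fzd6, Fzd7, Rspo1 and Sfrp2 higher, and Fzd5, Sfrp1 and Wnt5a lower. For Fzd6, Rspo1 and Sfrp2 the day 1 call, and for Sfrp2 also the day 5 call, was lost without single arrays, as given above. A further 10 (17.9%) were higher at day 5 without a call at days 1 and 3 (Fzd1, Fzd10, Kremen1, Porcn, Ror2, Ryk, Wls, Wnt3, Wnt4 and Wnt8a), a pattern of 7.68% of all genes. No call is not the same as no change: Ror2 at day 1, Ryk and Wnt3 at day 3, and Wnt8a at both days did not overlap day 0. The day 5 call of Porcn was lost without single arrays and that of Wnt4 with the brighter probe set, as given above. Dkk1, Fzd3, Fzd4, Sfrp2, Sfrp4 and Wnt7b (6, 10.7%) changed at day 3 and then in the opposite direction at day 5 against day 3, as did 7.39% of all genes. Dkk1 and Ror1 (2, 3.57%) turned at day 1, as did 2.49% of all genes. The turns of Wnt7b and Ror1 each rest on a call that was lost without single arrays, as given above. The 7 other members called at any day (Fzd2, Fzd8, Fzd9, Lrp5, Lrp6, Notum and Wnt11) followed none of these courses.

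Other extracellular genes of the pathway, from a list of 17, had 7 higher and 1 lower at day 5 (median 0.09), where 17.4% of all genes were higher and 17.6% lower. Frzb, a secreted Wnt-binding antagonist related to the Sfrp genes, rose by 0.76 at day 3 and 2.67 at day 5 (adjusted p = 3.3e-04 and 4.8e-09). Igfbp4, which binds insulin-like growth factors and also blocks Wnt receptors, rose by 1.64 at day 5 (adjusted p = 4.1e-08). The glypicans are heparan sulfate proteins of the cell surface. Gpc4 rose by 0.48 at day 3 and 1.69 at day 5 (adjusted p = 0.0069 and 1.3e-07). Gpc6, named after its values were seen, rose by 0.27 at day 3 and 1.20 at day 5 (adjusted p = 0.037 and 2.9e-07). Gpc3 rose by 0.90 at day 1, 1.47 at day 3 and 1.00 at day 5 (adjusted p = 5.4e-06, 1.8e-08 and 2.3e-07).

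Of 31 intracellular pathway genes measured, 2 were higher and 2 lower by day 1, where 6.45% of all genes were higher and 4.48% lower. By day 3, 9 were higher and 2 lower, with 13.5% and 13.1% of all genes. By day 5, 14 were higher and 6 lower (median 0.17), with 17.4% and 17.6% of all genes. Tcf7l2, a DNA-binding partner of β-catenin, rose by 1.59 at day 5 (adjusted p = 5.2e-09), and Tcf7l1, the repressor of the same family, by 0.54 (adjusted p = 3.3e-05). Bcl9l, a β-catenin cofactor, rose by 0.53 and Tle4, a co-repressor, fell by 0.47 (adjusted p = 1.6e-05 and 3.0e-04). Of 15 planar polarity genes 6 rose and 1 fell at day 5 (median 0.13), beside the same day 5 shares of all genes. Prickle1 rose by 1.28 and its paralog Prickle2 fell by 0.85 (adjusted p = 3.6e-08 and 1.6e-05).

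Genes that Wnt signaling induces in many cells did not move as 1 group. Of 17 measured, 5 were higher and 1 lower by day 1, 1 higher and 5 lower by day 3, and 3 higher and 4 lower by day 5 (median -0.02), and 4 of the 17 are also members. Shares over all genes were 6.45% up and 4.48% down for day 1. They were 13.5% and 13.1% for day 3, and 17.4% and 17.6% for day 5. Whether the counts of so short a list differ from these shares was not tested. Tnfrsf19 rose by 1.09 at day 5 (adjusted p = 1.1e-06). Sp5 and Rnf43, named after their values were seen, also rose at day 5 (0.75 and 0.39, adjusted p = 9.3e-04 and 0.0015). The 4 lower at day 5 were Lef1, Bmp4, Dkk1 and Notum. Lef1, both a target and a partner of β-catenin, rose by 0.90 at day 1 (adjusted p = 1.6e-05) and at day 5 fell by 0.44 against day 0 (adjusted p = 7.6e-04). Axin2, the feedback inhibitor most used as a Wnt readout and named here after its values were seen, fell by 0.68 at day 3 (adjusted p = 0.011), rose by 0.71 at day 5 against day 3 (adjusted p = 0.0093) and at day 5 was 0.03 from day 0 (SE 0.18, adjusted p = 0.93).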

How the data were processed

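Total RNA of 12 cultures was hybridised to Affymetrix Mouse Gene 1.0 ST arrays. The authors normalized the arrays together with RMA in Affymetrix Expression Console (version not given in the sources used here) and deposited 1 log2 value for each probe set on each array, from 1.61 to 14.69. No further normalization was applied. A value ranks arrays for 1 gene and not genes against each other. Depth is not defined for arrays, and the number of arrays limits the precision. The labels call the samples replicates, and the methods call them biological.

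Of 35557 probe sets, 21789 had 1 symbol in the platform annotation, 1621 several and 12147 none. Those with 1 symbol were averaged per gene, as in the methods, which gave 19938 genes. No probe set with several symbols names a member. The test was that of limma 3.58.1 (R 4.3.3; lmFit, eBayes, 1 mean per day, 12 arrays, 8 residual and 4.63 prior degrees of freedom), in place of the analysis of variance of the methods, with Benjamini-Hochberg adjustment over all genes and a threshold of 0.05. The script was tested on simulated data. Tables and figures were made with Python 3.11.15, pandas 2.3.3, numpy 2.4.6 and matplotlib 3.10.9.

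A gene was called dim where its 12-array mean was at or below 6.28, the 95th percentile of 1015 olfactory receptor genes. Per-array values are given for members with a log2 change of at least 0.5 and a call against day 0, up to 5 a role, with up to 3 other examples. Of the other pathway lists, up to 4 genes with the smallest adjusted p at day 5 are named, and the list of target genes leaves out those not measured. Members and lists were chosen with earlier results of these data known. Alternatives were quantile normalization, median centring, the brightest probe set, every probe set, no dim genes, a trended robust variance, only the 2 days compared, the methods' analysis of variance, a replicate block and each array left out.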

Additional observations from a re-analysis of the deposited data

How the results depend on the processing

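No change of direction occurred among the 89 calls of single members under any alternative run. Of these calls, 18 were lost without at least 1 array and 71 were kept without any 1 array. The number lost was 8 with median centring, 7 with every probe set, 5 with quantile normalization, 3 with only the 2 days compared, 2 with a replicate block, 1 with the brightest probe set, and 0 with a trended robust variance or without dim genes.

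Leaving out 1 array at a time gave 3 to 8 members higher at day 1 against day 0 (6 with all arrays), 10 to 14 higher at day 3 (12) and 19 to 22 higher at day 5 (21). The 3 came without day 1 replicate 1. Members higher at day 3 against day 1 numbered 5 with median centring and 13 with only the 2 days compared, against 8. The analysis of variance with Bonferroni adjustment and a fold over 2 called 2 members over the time course, Dkk1 and Wnt5a, against 29 by the moderated F test and 28 by the same analysis of variance with Benjamini-Hochberg adjustment. Median centring moved the share of all calls that were higher to 69.6% from 59.0% at day 1, to 61.0% from 49.8% at day 5, to 26.0% from 44.2% for day 3 against day 1, and to 74.0% from 51.6% for day 5 against day 3. Members higher and lower then numbered 7 and 4, 23 and 6, 5 and 6, and 19 and 4.

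Samples with the same replicate number did not deviate together (correlations -0.1702 to 0.0707 over 18 pairs). With the number as a block, 6 members were higher and 4 lower by day 1, 11 higher and 7 lower by day 3, and 21 higher and 7 lower by day 5, and 30 were called over the time course. Calls against day 0 that an alternative other than a left-out array ended were those of Fzd4 at day 1, Lrp5 and Lrp6 at day 3, and Fzd9, Porcn, Sfrp2 and Wnt4 at day 5. The block removed the day 3 calls of Lrp5 and Lrp6 and no other.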

Other observations

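Day 5 replicate 2 was the lowest of the 3 day 5 arrays for 15 of the 21 members higher at day 5 against day 0 (71.4%), as it was for 46.2% of the 3474 genes higher at that day. For members higher at day 5 against day 3 it was the lowest for 10 of 13 (76.9%), and for 44.5% of the 2601 such genes. Without that array no day 5 call of Wnt8a, Wnt3, Wls or Fzd2 against day 0 was lost. The count was made after the values were seen.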
